A study of Mus musculus with 192 samples.

Results

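Of the 8447 named genes measured across a grid of mouse brain voxels, 62 code for chaperones and heat shock proteins. They were chosen by gene symbol: the Hsp families, the J-domain proteins Dnaja, Dnajb and Dnajc, the chaperonin subunits Cct2 to Cct8 and Tcp1, the cofactors Bag1 to Bag6, the disulfide isomerases Pdia, and Calr and Canx. The array table held 64 such genes in 127 rows. Dnajb8 and Hspa4 had too few measured values, so 62 genes in 122 rows were followed. Of these, 38 were counted as cytosolic or nuclear, 15 as residents of the endoplasmic reticulum (ER) and 7 as mitochondrial. The remaining 2 were assigned to none of these: Hspg2, which the symbol rule finds but which codes for the proteoglycan perlecan, and Hspbap1.

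The RNA came from cubes (voxels) of brain of C57BL/6 male mice of age P56, pooled per voxel as the labels describe, and each array set 1 voxel against whole brain RNA of the same strain, sex and age. A voxel is named here by its grid row, A to G, and its grid column, 1 to 11, with no anatomical direction given. There were 59, 68 and 65 arrays in 3 independently harvested datasets, which together cover 68 positions. Voxel RNA carried Cy3 in datasets 1 and 3 and Cy5 in dataset 2, so dye and dataset cannot be told apart.

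Values are log2 ratios centred on each array's median. Each row of the deposited table had also been centred on its own median, so a value compares positions with each other and says nothing of the level in whole brain. Higher values probably stand for more voxel RNA, although the numerator is not stated. The lowest correlation between any 2 arrays of one dataset was -0.461, the median 0.139, and 0.0824% of pairs lay under -0.3. The direction was kept as deposited because the dyes are stated for every array and voxels of different regions can oppose each other. Each voxel holds many cell types, and fewer cells of a type cannot be told apart from less RNA per cell. Of the neuron markers, 4 of 4 measured cortical genes (9 listed) and 4 of 5 measured striatal genes (14 listed) differed among positions. The share over all features was 4.92%. Other marker lists ran from 2 of 2 hypothalamus genes to 0 of 3 microglia and 0 of 3 vascular genes. The lists were chosen with earlier results of these data known, so these counts are no independent check of the grid. In dataset 2, 6 arrays of row D, in columns 1 to 3 and 5 to 7, went against their labels: over the 300 features with the largest F they correlated with the other datasets at a mean of -0.29 as labelled and 0.74 in mirrored column order, and the mirrored order was closer for each of the 6. Arrays of dataset 2 outside row D averaged 0.63 as labelled. The labels were kept, and results are given without these arrays where they bear on them. Means are given with the SD over datasets, n = 3 unless n = 2 is stated, and the number of arrays limits their precision.

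Chaperones bind unfolded proteins and help them reach or keep their shape. In the cytosol, HSP70 proteins work with J-domain proteins, which hand over clients, and with cofactors such as the Bag proteins, while the ring-shaped chaperonin TRiC folds actin and tubulin and HSP90 finishes many signalling proteins. In the ER, the HSP70 protein BiP (Hspa5), the HSP90 protein Hsp90b1, the lectins calnexin (Canx) and calreticulin (Calr) and the disulfide isomerases fold secreted and membrane proteins. The unfolded protein response raises many ER members through the ER stress response element (ERSE), and heat shock factor raises many cytosolic and mitochondrial ones through the heat shock element.

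These promoter elements are shown because the first was matched in ER members and in none of the cytosolic or mitochondrial ones. RefSeq promoters (GRCm38.p6, from 250 bases before to 50 bases after the gene start) were at hand for 52 of the 62 genes. The ERSE was searched on both strands as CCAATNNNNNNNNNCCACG. It was present in 6 of the 15 ER promoters, which belong to 14 genes, in 0 of the 44 cytosolic promoters and in 0 of the 5 mitochondrial ones, against 0.119% of all 32851 promoters. The matches are read on the strand that spells the motif, with its fixed letters in capitals.
Hspa5: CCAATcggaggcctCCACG
Canx: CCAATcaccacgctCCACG
Calr: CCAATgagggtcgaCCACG
Dnajc3: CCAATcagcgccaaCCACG
Pdia6: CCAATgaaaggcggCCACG
Hsp90b1, first match: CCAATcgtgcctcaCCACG
Hsp90b1, second match: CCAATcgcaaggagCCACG
They lie at chr2:34772025-34772043 (Hspa5, + strand), chr11:50325800-50325818 (Canx, - strand), chr8:84847075-84847093 (Calr, + strand), chr14:118937827-118937845 (Dnajc3, + strand), chr12:17266491-17266509 (Pdia6, + strand), and for Hsp90b1 at chr10:86705533-86705551 (+ strand) and chr10:86705638-86705656 (- strand). A match is a description of letters and not a shown site of binding.

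A heat shock element of 3 units, GAANNTTCNNGAA on either strand, was found in none of the 15 ER promoters. It was in those of the cytosolic genes Dnajb6 and Hsph1 and the mitochondrial genes Hspd1 and Hspe1, against 0.603% of all promoters. Hspd1 and Hspe1, the HSP60 chaperonin and its HSP10 lid, are neighbours that share 1 pair of overlapping matches between them.
Hspd1 and Hspe1, first match: GAAggTTCtaGAA
Hspd1 and Hspe1, second match: GAAccTTCcgGAA
These lie at chr1:55088059-55088071 (- strand) and chr1:55088064-55088076 (+ strand).

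Dnajc21, Pdia3, Hspa5, Dnajc10 and Cct3 differed among the 68 positions at an adjusted p below 0.05. The test was the moderated F test of limma, blocked by dataset, with Benjamini-Hochberg adjustment over all 15608 features. It called 5 of 62 members (8.06%), against 4.92% of all features. By compartment it called 3 of 15 ER members (20%), 2 of 38 cytosolic members (5.26%) and 0 of 7 mitochondrial ones. With array weights calls rose throughout, from 768 to 2543 of the 15608 features and from 5 to 13 of the 62 members. Mitochondrial calls were then 3 of 7 (Hspe1, Hspa9 and Hspd1). At an unadjusted p below 0.05 the test without weights counted 10 members (16.1%), 1 of them mitochondrial, against 13.3% of all features. The median distance between the highest and the lowest position mean was 1.29 log2 units for members and 1.58 for all features. These are unlike measures, since 34 of the 62 members average several rows, while features without a symbol are single rows. The median residual SD was also lower for members (0.38) than for all features (0.47). The part of averaging and noise in the distance was not tested.

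**Figure D1:**
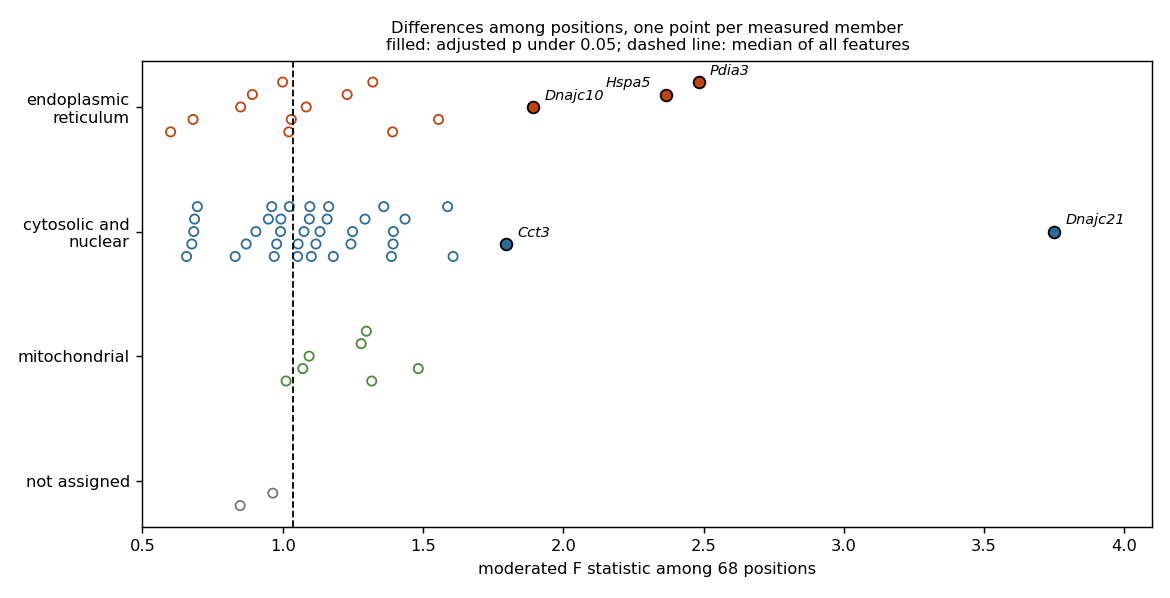
Moderated F statistic among 68 positions (horizontal axis) for each of the 62 measured members, in 4 lanes by compartment. Filled points passed an adjusted p of 0.05, open points did not, and the dashed line is the median of all features (1.04); Dnajc21 stands highest at 3.75, and the called ER genes are Pdia3, Hspa5 and Dnajc10.

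Dnajc21, a J-domain protein known in human cells for its part in ribosome assembly, had the largest F of the members (3.75, adjusted p = 1.4e-08). It was high along grid rows F and G, apart from F4 (0.04 ± 0.83), and at the outer ends of row E, and lowest at the outer ends of rows A and B. At F2, its highest position, it read 0.85, 1.02 and 1.14 in datasets 1, 2 and 3 (mean 1.00 ± 0.14). At B2, its lowest, it read -1.17 and -1.01 in datasets 2 and 3 (mean -1.09 ± 0.11, n = 2). F2 was above B2 in both datasets that hold both positions. The next highest positions were G5 (0.93 ± 0.15, n = 2) and G9 (0.93 ± 1.21). At G9 the datasets disagreed, with 1.90 and 1.31 in datasets 1 and 2 and -0.42 in dataset 3. Its map repeated between datasets more closely than that of any other member, with Spearman rho of 0.40, 0.41 and 0.61 for the pairs of datasets over the 56 positions they share. The median of the members' mean rho was 0.08, and that of all features 0.03. Without the 6 doubtful positions the rho of Dnajc21 was 0.55, 0.45 and 0.67 over 50 positions. Both of its table rows were called on their own (adjusted p = 0.0048 and 1.1e-05).

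Pdia3, the ER oxidoreductase that acts on glycoproteins held by calnexin and calreticulin, had a narrower map running the other way along the rows (F = 2.48, adjusted p = 3.4e-04). It was highest at B5, with 0.67 and 0.42 in datasets 2 and 3 (0.55 ± 0.18, n = 2), then at B4 (0.50 ± 0.13, n = 2) and B8 (0.46 ± 0.38). It was lowest at A10, with -0.30 and -0.50 in datasets 2 and 3 (-0.40 ± 0.14, n = 2). E1 (-0.37 ± 0.43) and F2 (-0.36 ± 0.16) followed. Its mean rho between datasets was 0.33. Only 1 table row stands for it.

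Hspa5, the ER HSP70 protein BiP and the sensor partner of the unfolded protein response, had its highest means in columns 5 to 7 of rows A and B and its lowest in row G (F = 2.36, adjusted p = 8.7e-04). At B7 it read 0.70, 0.51 and 0.33 in datasets 1, 2 and 3 (0.52 ± 0.19), and A7 (0.49 ± 0.21) and A5 (0.44 ± 0.25) came next. At G8 it read 0.03, -0.47 and -0.87 (-0.44 ± 0.45), followed by G3 (-0.43 ± 0.42) and G4 (-0.43 ± 0.41). In each dataset B7 was above G8, although the distance varied. Both areas had exceptions: B6 averaged 0.01 ± 0.48, with -0.52 in dataset 3, G5 averaged 0.05 ± 0.05 (n = 2), and the mean of row G in dataset 1 was -0.00095. Its mean rho between datasets was 0.35. Its 3 table rows correlated weakly with each other, at between 0.13 and 0.20, and 1 of them was called on its own (adjusted p = 0.0314). That row was highest at B7 (0.87) and lowest at B6 (-0.92), the neighbouring voxel.

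Dnajc10, an ER J-domain protein that reduces disulfides as a partner of BiP, differed less firmly (F = 1.89, adjusted p = 0.0265). Its lowest position was F4, at -1.12, -1.06 and -0.51 in datasets 1, 2 and 3 (-0.90 ± 0.34). Its highest mean, at C5 (0.71 ± 1.20), rests on dataset 3, which read 2.09 there against -0.07 and 0.10 in datasets 1 and 2. C1 was even across datasets, at 0.48, 0.48 and 0.34 (0.43 ± 0.08).

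Cct3, the gamma subunit of TRiC, lay just past the threshold (F = 1.79, adjusted p = 0.0496). It was highest at B7, with 0.59, 0.40 and 1.04 in datasets 1, 2 and 3 (0.68 ± 0.33), and lowest at A10, with -1.51 and -0.76 in datasets 2 and 3 (-1.13 ± 0.53, n = 2). E1 was low in each dataset (-0.86 ± 0.51). G9 had a low mean (-0.80 ± 1.73) through dataset 3 alone, which read -2.78 against -0.06 and 0.45 in datasets 1 and 2. None of its 5 table rows passed the test alone.

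**Figure D2:**
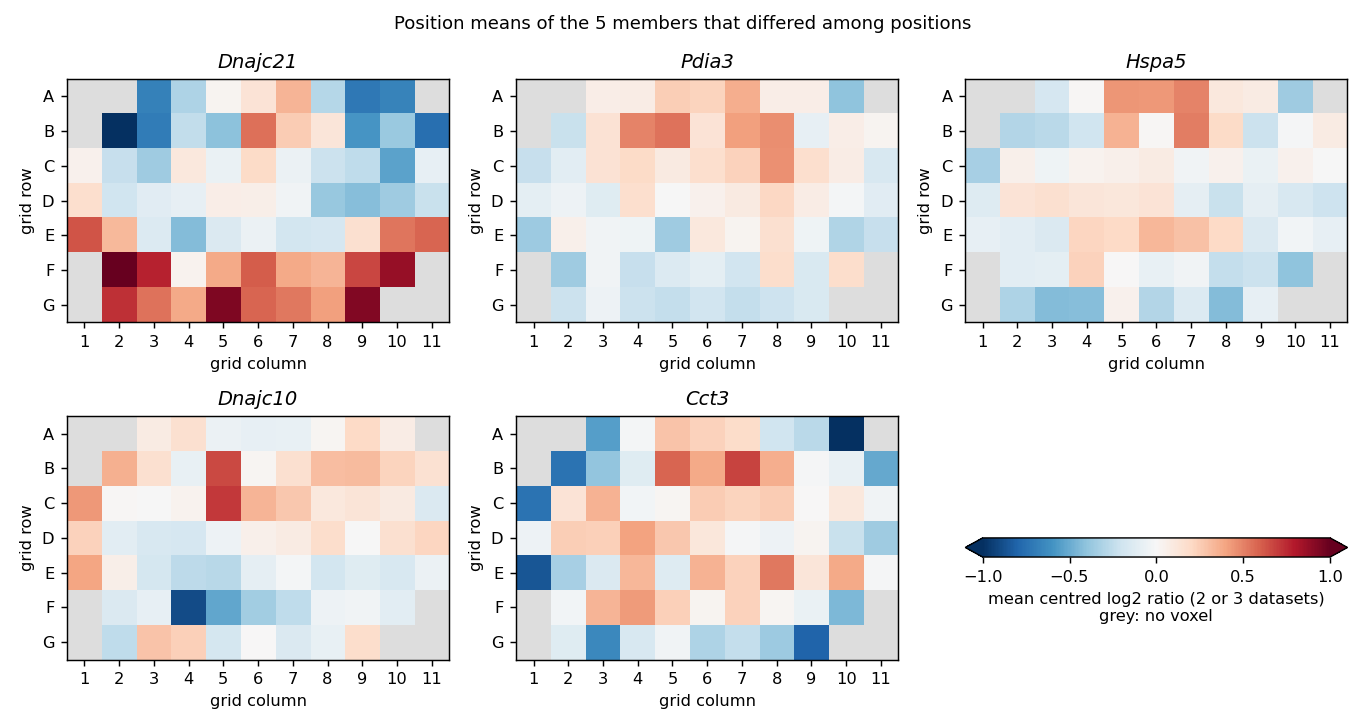
Position means of centred log2 ratios for the 5 members that differed among positions, on the voxel grid (grid column across, grid row A to G down; red above 0, blue below, grey where there was no voxel). Dnajc21 is red along rows F and G and blue at the outer ends of rows A and B; Hspa5 is red at A5 to A7, B5 and B7, near 0 at B6 (0.01), and blue in row G except at G5 (0.05).

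**Figure D3:**
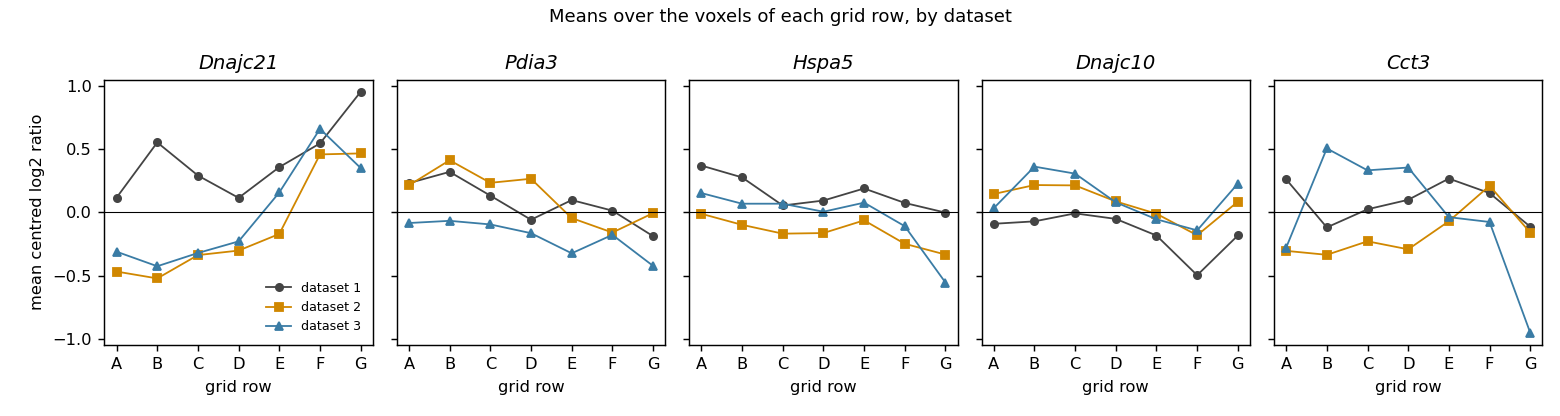
Mean centred log2 ratio over the voxels of each grid row A to G, drawn as 1 line per dataset, for the same 5 genes. Dnajc21 averaged 0.59 ± 0.32 in row G and -0.22 ± 0.30 in row A (SD, n = 3), while Pdia3 and Hspa5 decline toward row G and Cct3 in dataset 3 drops to -0.95 there.

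The promoters of Hspa5 and Pdia3 are printed whole because both are ER genes that differed among positions, and only the first matches the ERSE. Capitals mark CCAAT boxes on either strand (ATTGG on the other) and, in Hspa5, the ERSE, which contains 1 of them. A CCAAT box occurs in 37.4% of all promoters.
Hspa5: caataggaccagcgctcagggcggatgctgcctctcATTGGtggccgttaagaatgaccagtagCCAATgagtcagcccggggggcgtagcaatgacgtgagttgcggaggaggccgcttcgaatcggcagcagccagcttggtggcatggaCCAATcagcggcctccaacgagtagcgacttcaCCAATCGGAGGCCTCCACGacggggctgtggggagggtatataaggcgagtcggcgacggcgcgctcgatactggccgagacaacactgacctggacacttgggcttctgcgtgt
Pdia3: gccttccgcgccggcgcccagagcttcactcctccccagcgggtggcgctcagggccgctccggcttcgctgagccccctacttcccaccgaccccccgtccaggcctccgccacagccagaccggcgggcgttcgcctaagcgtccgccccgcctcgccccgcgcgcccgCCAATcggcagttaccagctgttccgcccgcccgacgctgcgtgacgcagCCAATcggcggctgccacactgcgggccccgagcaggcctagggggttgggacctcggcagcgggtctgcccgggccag
They span chr2:34771840-34772139 (+ strand) for Hspa5 and chr2:121413652-121413951 (+ strand) for Pdia3. Hspa5 holds 4 CCAAT boxes and Pdia3 holds 2. Dnajc21 and Dnajc10 hold 0 and Cct3 holds 2.

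The calls of the 5 members changed when a dataset, and with it its arrays, was left out. Calls over all 15608 features fell as well, from 768 to 324 without dataset 1, 213 without dataset 2 and 546 without dataset 3. The part of the lower number of arrays was not tested. Without dataset 2 none of the 5 passed (adjusted p = 0.196 for Dnajc21 and 0.296 for Pdia3), and without dataset 1 only Dnajc21 did, with Pdia3 at 0.11 and Hspa5 at 0.333. Without dataset 3 Pdia3 missed the threshold (adjusted p = 0.185), and Cct2 passed it (0.0065). Without the 6 arrays of row D whose order is in doubt, Dnajc10 (0.0549) and Cct3 (0.0506) missed the threshold, while Dnajc21 (6.1e-09), Pdia3 (4.1e-04) and Hspa5 (5.4e-04) passed it.

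The other members named here had the next smallest p and did not pass the adjusted test. Among cytosolic members, the small heat shock protein Hspb1 reached 0.63 ± 0.53 at E6 and -1.07 ± 0.77 at E1 (adjusted p = 0.155). Dnaja1, a J-domain partner of cytosolic HSP70, reached 0.62 ± 0.52 at F4 and -0.38 ± 0.24 at D11 (0.168). Hsp90aa1, the stress-inducible cytosolic HSP90, reached 0.45 ± 0.33 at C6 and -0.53 ± 0.25 at B3 (n = 2, 0.336). In each of these 3 genes the SD over datasets at the top position was of the order of its mean.

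Hspa8, the constitutive cytosolic HSP70, reached 0.45 ± 0.36 at C6 and -0.56 ± 0.25 at C1. Cct2 reached 0.64 ± 1.14 at C5 and -0.87 ± 0.93 at C1, and Cct8 reached 0.56 ± 0.48 at B8 and -2.19 ± 2.94 at E1, so Cct2 at C5 and Cct8 at E1 rest on dataset 3. The J-domain proteins Dnajc17 (1.86 ± 2.21 at B6) and Dnajb2 (1.96 ± 3.23 at C5) likewise owed their highest means to 1 dataset each, and Bag3 was lowest at A9 (-2.18 ± 1.63). Hspb8, a small heat shock protein that works with Bag3, ranged between 0.93 ± 0.93 at E6 and -1.17 ± 1.05 at B11, and Dnajc8 between 0.51 ± 0.30 at B5 (n = 2) and -0.54 ± 0.40 at F4. Adjusted p lay between 0.394 and 0.700 for these 8 genes.

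Among ER members, calnexin (Canx) came nearest (adjusted p = 0.196), with -1.16 ± 1.51 at C1 and 0.71 ± 1.46 at B9 (n = 2). Hsp90b1 reached 0.65 ± 0.86 at E6 and -0.51 ± 0.34 at D11. Dnajb9, an ER J-domain partner of BiP, read 0.55 ± 0.15 at B6 and -0.46 ± 0.40 at E3 (n = 2). Pdia6 read 0.76 ± 0.33 at B7, the position where Hspa5 was also highest, and -0.47 ± 0.64 at G2 (n = 2). Adjusted p was 0.397 for Hsp90b1, 0.503 for Dnajb9 and 0.634 for Pdia6.

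The 4 mitochondrial members named here had their highest means in rows B and C. Dnajc15, a J-domain protein of the inner membrane, read 0.73 ± 0.61 at B5 (n = 2) and -0.55 ± 0.82 at G9. Hspd1 (HSP60) read 0.41 ± 0.20 at B7 and -0.37 ± 0.36 at G7, and its partner Hspe1 (HSP10) read 0.49 ± 0.39 at B7 and -0.55 ± 0.06 at G5 (n = 2). Hspa9, the mitochondrial HSP70, read 0.42 ± 0.32 at C4 and -0.62 ± 0.44 at E4. Hspd1 and Hspe1 peaked at the same voxel only as averages of their rows, and adjusted p was 0.510 and 0.564. Taken singly, the rows of Hspd1 were highest at C7, C7 and A8, and those of Hspe1 at B4 and E10. The median correlation between rows was -0.07 in Hspd1 and -0.03 in Hspe1.

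Averaged by compartment, the ER and mitochondrial members shared B7 among their 3 highest positions, and the cytosolic members had other ones. The mean of the 15 ER members was highest at B7 (0.20 ± 0.24), A5 (0.17 ± 0.09) and C4 (0.16 ± 0.23), and lowest at F3 (-0.18 ± 0.22), G2 (-0.14 ± 0.01, n = 2) and G5 (-0.13 ± 0.04, n = 2). The mean of the 38 cytosolic members was highest at C5 (0.25 ± 0.18), F3 (0.21 ± 0.16) and C6 (0.17 ± 0.10), and lowest at E1 (-0.24 ± 0.30), C1 (-0.22 ± 0.19) and E5 (-0.21 ± 0.19). Low ER means rested on 1 gene: Hspa13 averaged -2.32 ± 2.25 at F3, with -4.73 in dataset 1. Without it the mean of the other 14 ER members at F3 was -0.03 ± 0.08. Their lowest positions were then G8 (-0.18 ± 0.04), D11 (-0.14 ± 0.10) and B3 (-0.14 ± 0.01, n = 2), and their highest B7 (0.23 ± 0.25), B8 (0.18 ± 0.11) and A5 (0.18 ± 0.09). Among the cytosolic members, Cct8 averaged -2.19 at E1, where the mean without it was -0.19 ± 0.25. The mean of the 7 mitochondrial members was highest at B5 (0.33 ± 0.26, n = 2), B4 (0.24 ± 0.01, n = 2) and B7 (0.23 ± 0.03), and lowest at F4 (-0.24 ± 0.11), G9 (-0.20 ± 0.15) and A10 (-0.19 ± 0.03, n = 2). Across the 68 position means, which share arrays, the ER and cytosolic means correlated at a Spearman rho of 0.36, and of 0.55 without Hspa13. The mitochondrial mean correlated at 0.32 with the cytosolic mean and at 0.27 with the ER mean.

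The compartment means repeated unevenly between datasets. The mitochondrial mean gave rho of 0.33, 0.43 and 0.15 for datasets 1 and 2, 1 and 3, and 2 and 3, over 56 positions. The ER mean gave 0.31, 0.03 and 0.03 for the same pairs, and 0.35, 0.26 and 0.32 without Hspa13. The cytosolic mean gave 0.09, 0.07 and 0.30. Without the 6 doubtful positions the values were 0.38, 0.42 and 0.25 for the mitochondrial mean, 0.29, 0.06 and 0.06 for the ER mean and 0.13, 0.07 and 0.37 for the cytosolic mean. Correlations here describe positions that share arrays and neighbours, and carry no test.

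To set genes against each other without shared arrays, each gene's map in one dataset was correlated with the other gene's map in another dataset. Over 105 pairs of ER members the mean rho was 0.03, over 703 cytosolic pairs 0.01, over 21 mitochondrial pairs 0.05, over 570 ER and cytosolic pairs 0.02, and over all pairs of features -0.00016. Such values are bounded by how well each gene repeats its own map, for which the median rho was 0.10 in ER, 0.06 in cytosolic and 0.11 in mitochondrial members, so they do not show how much of a map is shared. Among 4 genes whose promoters hold an ERSE match, Hspa5 gave 0.29 with Hsp90b1, 0.24 with Canx and 0.14 with Pdia6, Canx gave 0.19 with Hsp90b1 and 0.08 with Pdia6, and Hsp90b1 gave 0.11 with Pdia6. Pdia3, which has no match, gave 0.27 with Canx, 0.22 with Hspa5, 0.19 with Hsp90b1 and 0.08 with Pdia6. Calr and Dnajc3, which also hold a match, were not among these pairs. Any part of the element in the maps was not tested. Hspa5 with Cct3, a cytosolic gene, gave 0.24. Without the 6 doubtful positions Hspa5 gave 0.33 with Hsp90b1, 0.28 with Canx, 0.26 with Pdia3 and 0.25 with Cct3, and Canx with Pdia3 gave 0.30. Dnajc21 ran the other way to Pdia3 (-0.21), Hsp90b1 (-0.20) and Hspa5 (-0.19). Within TRiC, whose 8 subunits assemble into 1 particle, 28 pairs averaged 0.05 across datasets and 0.17 on the same arrays.

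The first zone comparison asked how rows A-B (18 positions) differed from rows F-G (17 positions), taking 1 difference of zone means per dataset. No member passed limma's test after adjustment, and 17 of all features did (0.109%). At an unadjusted p below 0.05, 3 members were higher and 2 lower, against 3.15% and 5.88% of all features. Dnajc21 had the widest difference of the members. It averaged 0.32, -0.50 and -0.37 in rows A-B of datasets 1, 2 and 3, against 0.74, 0.46 and 0.53 in rows F-G, a difference of -0.76 ± 0.29 (adjusted p = 0.237). Rows A-B lay below rows F-G in each dataset, as they did in 2971 of all 15608 features. The 2 zones did not overlap across datasets, and the share of all features without overlap is not given here.

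Pdia3 averaged 0.27, 0.32 and -0.07 in rows A-B, against -0.08, -0.09 and -0.28 in rows F-G of datasets 1 to 3 (difference 0.32 ± 0.10, adjusted p = 0.493). Hspa5 averaged 0.33, -0.06 and 0.11 in rows A-B, against 0.04, -0.29 and -0.30 in rows F-G (difference 0.31 ± 0.09, adjusted p = 0.505). Rows A-B were above rows F-G within every dataset for both genes, as they were for 2094 of all 15608 features. Over datasets the 2 zones overlapped for Hspa5 and just failed to for Pdia3. Hsp90b1 averaged 0.22 ± 0.22 in rows A-B and -0.14 ± 0.04 in rows F-G, a difference of 0.36 ± 0.26, and its dataset values were 0.24, 0.18 and 0.66. Dnajc15 differed by 0.28 ± 0.18. On the lower side were Bag2, a cofactor that restrains the ubiquitin ligase CHIP (-0.36 ± 0.30), Dnajb11, an ER J-domain protein (-0.22 ± 0.09), and Bag6 (-0.29 ± 0.40), whose spread exceeded its mean.

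By compartment, 10 of 15 ER members and 6 of 7 mitochondrial members had a difference above 0, against 17 of 38 cytosolic ones and 45.4% of all features. The medians were 0.09 for ER, 0.16 for mitochondrial and -0.02 for cytosolic members, and -0.02 for all features. All 4 disulfide isomerases were above 0 (median 0.12), as were the ER pair Hspa5 and Hsp90b1, whereas the third ER member of the HSP70 and HSP90 group, Hspa13, was at -0.47. All 6 cytosolic HSP70 and HSP110 genes were below 0, between -0.18 and -0.05. The median of the ER members fell to 0.008 without dataset 1 and 0.024 without dataset 3.

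Markers of regions moved along the same axis. The 4 measured cortical neuron markers (of 9 listed) differed by -1.47 ± 0.22 (rows A-B less rows F-G), and the 2 measured hypothalamus markers (of 7) by 1.03 ± 0.09. The striatal markers differed by 0.25 ± 0.12 (3 of 5 above 0), and the other 7 lists lay between -0.19 and 0.05. Over 68 positions the cortical marker mean had a rho of 0.44 with Dnajc21, -0.64 with Pdia3 and -0.58 with Hspa5, and the hypothalamus mean had 0.57 with Pdia3. The striatal mean (5 of 14 measured) had -0.53 with Dnajc21. Arrays of rows A-B also had a wider spread of values than those of rows F-G (median absolute deviation 0.33 ± 0.05 against 0.26 ± 0.03). The part of these in the members' differences was not tested.

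**Figure D4:**
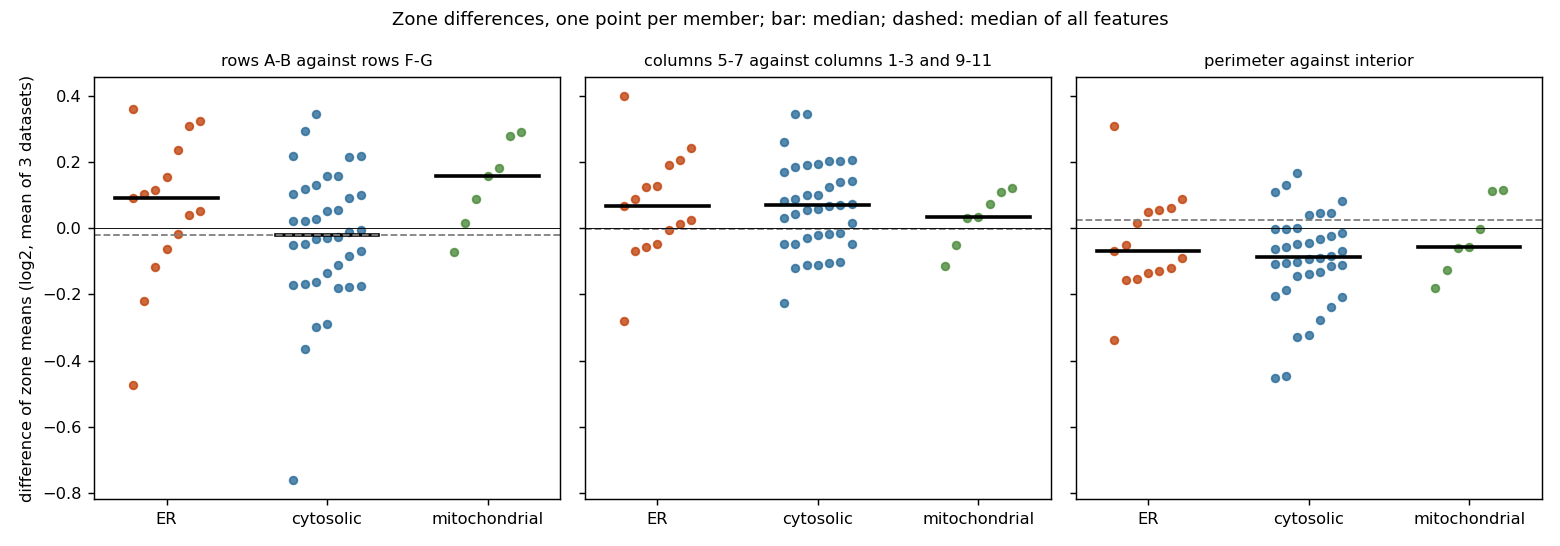
Difference of zone means on the log2 scale (vertical axis, mean of 3 datasets) for each ER, cytosolic and mitochondrial member in 3 comparisons, with each compartment's median as a bar and the median of all features as a dashed line. ER and mitochondrial medians lie above the line for rows A-B against rows F-G, and the cytosolic median lies at -0.09 for the perimeter against the interior.

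The middle columns 5-7 (21 positions) were next set against columns 1-3 and 9-11 (33 positions). No member and 0% of all features passed limma's adjusted test. At an unadjusted p below 0.05, 10 members were higher and 1 lower, against 6.34% and 6.82% of all features. Canx, the membrane lectin, averaged 0.24, 0.07 and 0.16 in the middle columns of datasets 1, 2 and 3, against -0.13, -0.23 and -0.37 in the outer columns (difference 0.40 ± 0.11, adjusted p = 0.173). The zones of Canx did not overlap across datasets, and the share of all features without overlap is not given here. Cct3 averaged 0.28, -0.07 and 0.31 in the middle columns, against -0.03, -0.35 and -0.14 in the outer ones (difference 0.35 ± 0.09, adjusted p = 0.210). Cct2 differed by 0.26 ± 0.06 and Hspa5 by 0.24 ± 0.03, both in the same direction in every dataset. Of all 15608 features, 2833 were above 0 in every dataset and 3118 below.

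Bag5, a cofactor that releases nucleotide from HSP70, was lower in the middle columns by -0.27, -0.17 and -0.24 (mean -0.23 ± 0.05, adjusted p = 0.286). Hspa13, an HSP70-like protein of the ER (-0.28 ± 0.35), Dnajc30 (-0.11 ± 0.05) and Dnajc9 (-0.11 ± 0.05) were also below 0. In all, 40 of 62 members were above 0 (median 0.06), against 49.6% of all features (median -0.001). The 8 TRiC subunits were all above 0, between 0.02 and 0.35 with a median of 0.14, and their dataset medians were 0.06, 0.14 and 0.28. Without the 6 doubtful arrays of row D, which lie in these columns, Canx differed by 0.44 (adjusted p = 0.0947) and Cct3 by 0.38 (0.128), 13 members were higher and 1 lower at an unadjusted p below 0.05, and all 8 TRiC subunits were above 0 with a median of 0.16. Among the rows measured on every array, which left 40 members and 7049 features, Canx (adjusted p = 0.0154), Cct2 (0.0117) and Cct3 (0.0412) passed the test. The share of all features passing in that setting is not given here, so these calls cannot be set against a background.

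The 3 measured myelin markers (of 10) were also higher in the middle columns, by 0.43 ± 0.03, and the 4 measured astrocyte markers (of 8) by 0.22 ± 0.07. The same held for the means of thalamus markers (0.42 ± 0.28, 3 of 4 above 0), choroid plexus markers (0.31 ± 0.22, 3 of 3) and hypothalamus markers (0.21 ± 0.15, 1 of 2). Striatal neuron markers (-0.76 ± 0.23, 0 of 5 above 0) and cortical neuron markers (-0.69 ± 0.28, 1 of 4) averaged lower in the middle columns. Vascular, microglia and blood markers lay between -0.13 and 0.05. The myelin mean had a rho of 0.63 with Cct3 and 0.50 with Hspa5 over 68 positions, and the astrocyte mean had 0.635 with the mean of the cytosolic members. Their part in the members' differences was not tested.

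Perimeter positions (26) and interior positions (42) were compared in the same way. No member passed after adjustment, against 0.109% of all features by limma. At an unadjusted p below 0.05, 0 members were higher and 9 lower, of which 8 were cytosolic, against 7.43% and 5.95% of all features. Cct3 averaged -0.05, -0.39 and -0.43 on the perimeter of datasets 1, 2 and 3, against 0.19, -0.04 and 0.32 in the interior (difference -0.45 ± 0.27, adjusted p = 0.214). The perimeter was lower in each dataset. Hspb1 (-0.32 ± 0.17), Dnajb2 (-0.33 ± 0.22) and Canx (-0.34 ± 0.24) were below 0 in every dataset as well. On the higher side, Dnajc21 (0.17 ± 0.06) and Hspa12a (0.11 ± 0.03), a distant HSP70 relative, were above 0 in each dataset, and Hspa13 (0.31 ± 0.37) and Hspbap1 (0.21 ± 0.24) were not.

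Only 18 of 62 members had a perimeter difference above 0, against 58.0% of all features. The cytosolic median was -0.09, with dataset medians of -0.02, -0.11 and -0.12, and the median of all features was 0.03. In all 3 datasets alike, 2 members lay above 0 and 17 below, against 20.8% and 15.9% of all features. The ER median was -0.07, and 1 of 8 TRiC subunits and 0 of 7 cofactors were above 0. The myelin marker mean differed by -0.69 ± 0.08 between perimeter and interior. The means of striatal neuron markers (-0.61 ± 0.06, 0 of 5 above 0), microglia markers (-0.26 ± 0.11, 0 of 3) and astrocyte markers (-0.12 ± 0.06, 0 of 4) were also lower on the perimeter. Those of thalamus markers (-0.35 ± 0.25, 2 of 4 above 0) and choroid plexus markers (-0.21 ± 0.08, 1 of 3) were lower too, though their genes were split. Vascular markers (0.31 ± 0.10) and cortical neuron markers (0.30 ± 0.27) were higher there, and hypothalamus and blood markers differed by 0.09 ± 0.14 and -0.05 ± 0.05. Perimeter arrays lacked 1.85% ± 0.59 of values against 1.44% ± 0.58 in the interior. The part of these was not tested. Without dataset 1, which left fewer differences per feature, Bag3 passed the adjusted test. The share of all features passing in that setting is not given here, so this call cannot be set against a background.

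Rows C-E (33 positions) against rows A-B and F-G gave 0 members, against 0.00641% of all features by limma. At an unadjusted p below 0.05 there were 2 higher and 2 lower members, against 4.61% and 2.13%. Hspb1 was higher in rows C-E in each dataset, by 0.31, 0.18 and 0.28 (mean 0.26 ± 0.07, adjusted p = 0.566), and Dnajb2, a J-domain protein enriched in neurons, by 0.22 ± 0.07. Hspb8 (0.17 ± 0.12) and Cct5 (0.16 ± 0.17) followed. Cct8, the theta subunit of TRiC, was lower by -0.31, -0.30 and -0.21 (mean -0.27 ± 0.05, adjusted p = 0.553). Dnajc21 (-0.24 ± 0.08), Bag6 (-0.16 ± 0.13) and Dnajc30 (-0.13 ± 0.08) were also lower in rows C-E. In all 3 datasets alike, 11 members lay above 0 and 13 below, against 2636 and 1806 of all 15608 features. The compartment medians were at 0.01 or nearer to 0. Striatal neuron (0.71 ± 0.19, 5 of 5 above 0), thalamus (0.54 ± 0.24, 4 of 4), choroid plexus (0.33 ± 0.07, 2 of 3) and myelin markers (0.29 ± 0.09, 2 of 3) averaged higher in rows C-E. Hypothalamus markers were lower (-0.33 ± 0.03, 0 of 2 above 0). The part of these markers was not tested. Without the doubtful arrays the difference was 0.24 for Hspb1, -0.27 for Cct8 and 0.22 for Dnajb2.

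Columns 1-5 against their mirror positions in columns 7-11 compared both sides of the grid. No member and 0% of all features passed limma's adjusted test, and 0 members were higher and 1 lower at an unadjusted p below 0.05, against 1.85% and 1.5% of all features. That member was Cct8, which differed by -0.18, -0.21 and -0.41 in datasets 1, 2 and 3 (mean -0.26 ± 0.13, adjusted p = 0.958). The other members named by the smallest p had spreads near or above their means: Dnajc17 (0.14 ± 0.20), Dnajb2 (0.11 ± 0.16), Bag3 (0.13 ± 0.23), Hspb8 (0.06 ± 0.08), Bag6 (-0.20 ± 0.19), Cct4 (-0.12 ± 0.13) and Hspa13 (-0.23 ± 0.40). In all, 23 of 62 members were above 0 (median -0.02), against 48.8% of all features (median -0.0023). In all 3 datasets alike, 1 member lay above 0 and 12 below, against 13.2% and 10.8% of all features. Without the 6 doubtful arrays of row D, which lie in these pairs, 18 members were above 0 (median -0.02), against 47.4% of all features, 0 members were higher and 2 lower at an unadjusted p below 0.05, and the difference of Cct8 was -0.28. Marker lists differed by between -0.10 and 0.05 from side to side.

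How far rows of one gene followed each other bears on every averaged value. Of the members, 34 had several table rows, and the median over these genes of the median correlation between rows was 0.05 across all arrays. It was above 0.5 in 6 genes, namely Cct5 (0.64), Cct7 (0.57), Hsph1 (0.57), Hspa8 (0.54), Pdia6 (0.52) and Cct3 (0.52), and below 0.2 in 24. In Cct3, 4 rows correlated at between 0.51 and 0.77 and the fifth at between -0.04 and 0.23 with them. Those 4 are close neighbours in the row numbering, and over the whole table rows with a distance of 2 in that numbering correlated at a median of 0.18, against -0.02 at a distance of 1000. The part of row position in the maps was not tested.

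Tested singly, 8 of 122 member rows differed among positions (6.56%), against 4.81% of all rows. They were both rows of Dnajc21 and 1 row each of Pdia3, Hspa5, Dnajc10, Dnajc3, Cct2 and Hspd1. Dnajc3, an ER cochaperone that also restrains the kinase PERK, had 4 rows that correlated at between -0.15 and 0.29, and its called row (adjusted p = 0.0216) was highest at E7 (0.62) and lowest at D11 (-0.67). Its other 3 rows and their average did not pass.

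**Figure D5:**
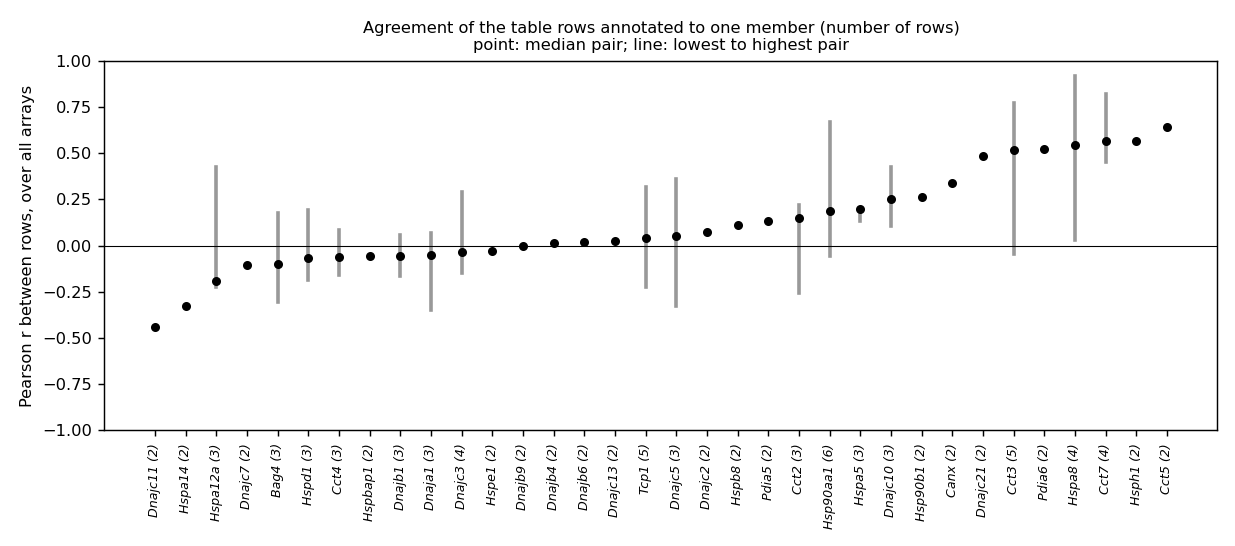
Pearson correlation between table rows annotated to the same member over all arrays (vertical axis), for the 34 members with several rows, ordered by their median (point) with the lowest and highest pair as a line. Medians run between -0.44 for Dnajc11 and 0.64 for Cct5, and 24 of 34 lie below 0.2.

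The genes whose maps were most like each called member were found by the mean over datasets of the Spearman rho within a dataset, over 56 positions, where both genes share arrays. For Dnajc21 they were Cdk2ap1 (0.64), Efna5 (0.59), Osbpl1a (0.57), Efhd2 (0.52) and Camk2g (0.52). For Pdia3 they were Rpl14 (0.70), Rpl22l1 (0.68), Rpl26 (0.68), Tppp3 (0.67) and Naca (0.66). For Hspa5 they were Prdx1 (0.71), Psma6 (0.64), Tmx2 (0.62), Glud1 (0.62) and Mrfap1 (0.60). For Dnajc10 they were Clpx (0.66), Cops4 (0.63), Ufsp1 (0.59), Samd14 (0.58) and Cptp (0.57), and for Cct3 Slc25a5 (0.75), Eif4a1 (0.75), Rpl3 (0.74), Cox7a2l (0.74) and Pgk1 (0.73). Psma6, Tmx2, Clpx, Cops4, Cptp, Slc25a5, Eif4a1, Cox7a2l and Pgk1 did not pass the moderated F test among positions (adjusted p between 0.104 and 0.701). The part of deviations shared by arrays in these rho values was not tested. The lists of the 5 members did not share a gene. How often such short lists share one was not counted, so nothing is drawn from this.

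Companion genes outside the symbol rule gave 3 of 21 cytosolic, 0 of 30 ER and 0 of 8 mitochondrial genes past the F test. Together these were 3 of 59, against 4.92% of all features. At an unadjusted p below 0.05 there were 6 of the 30 ER companions, against 13.3% of all features. Cryab, the small heat shock protein alpha-B-crystallin, differed far more than any member (F = 6.50, adjusted p = 9.1e-17). It reached 1.40 ± 0.30 at C4 and -1.43 ± 0.01 at B2 (n = 2). Pfdn1, a subunit of the prefoldin that hands clients to TRiC, reached 1.21 ± 0.29 at B5 (n = 2) and -0.59 ± 0.47 at F4 (adjusted p = 0.0319), and Fkbp8 reached 0.58 ± 0.46 at F4 and -0.93 ± 1.22 at G3 (0.0472). No ER companion joined the called ER members Pdia3, Hspa5 and Dnajc10, a count of 0 of 30 beside the 4.92% of all features.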

How the data were processed

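Expression was measured on 2-colour arrays of voxel RNA against whole brain RNA. The authors deposited 1 table of log2 ratios with 20847 rows; how arrays were scanned, background-corrected and normalized is not given in the sources used here. A labelling protocol in the labels names controls and lithium-treated samples, so dyes were taken from each array's own label. All columns used here were mapped to samples by their titles. Values at the floor (-6.64, 0.483% of values) were set to missing, arrays were centred on their median over rows measured on every array (shifts up to 0.353), 20 control rows were dropped, rows present on 80% or more of each dataset's arrays were kept, and rows of 1 symbol in the platform annotation were averaged.

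Positions were compared with limma 3.58.1 in R 4.3.3 (moderated F test, dataset as block); zones with limma's moderated test, two-sided, on 3 within-dataset differences; Benjamini-Hochberg adjustment ran over all 15608 features at 0.05. The fits were run on simulated data with independent noise on each array. Deviations shared within a dataset, given below, were not part of that check. Promoter sequences came from RefSeq (GRCm38.p6), matched by symbol. The order of the row D arrays of dataset 2, in doubt from earlier results, was checked against the other datasets. The dataset number marks an independent harvest, so it pairs arrays: deviations from position means correlated at a median of 0.237 within datasets and -0.124 between them, over 7555 features. Members, lists and zones were chosen with earlier results of these data known. Named genes were all called members, those with the smallest p up to 24, 4 per direction and zone, called companions and the 5 most similar maps per called member. Cct2, Hspd1 and Dnajc3 rows, Hspa13 (also left out of the ER mean) and marker pairs were named after their values were seen. Python 3.11.15 and pandas 2.3.3 made the tables. Alternatives covered centring, normalization, floor values, row choice, left-out datasets and arrays, the block and array weights.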

Additional observations from a re-analysis of the deposited data

How the results depend on the processing

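The dataset number is the block of every F test. With no replicate block, 1 member passed the F test in place of 5 (0 ER, 1 cytosolic), with 1 companion and 366 of all features. Array weights gave 13 members, 6 of them cytosolic and 3 mitochondrial in place of 0 (Hspe1, adjusted p = 0.0020, Hspa9, 0.0235, and Hspd1, 0.0364), 13 companions and 2543 features. Quantile normalization gave 6 companions and 1167 features, and rows measured on every array gave 1 companion. Without the row D arrays in doubt 3 members passed. One cytosolic member, Dnajc21, in place of 2 passed without array centring, with floor values kept, with one row per symbol, at positions in all 3 datasets, and without the row D arrays or the 3 arrays with many missing values. Leaving out each replicate in turn gave 0 to 5 members, 0 to 2 ER members, 0 to 3 cytosolic members, 1 companion and 213 to 546 features.

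Zone counts stayed at 0 members except with rows measured on every array (1 for rows A-B against rows F-G, Dnajc21, and 3 for columns 5-7), and 0 to 1 for the perimeter when leaving out a replicate. The fits on rows measured on every array tested fewer features (40 members), and the share of all features passing their zone tests is not given here. The share of all features passing the zone tests without a replicate is not given here either, and the cause of that change was not tested. The median difference of ER members for rows A-B was 0.13 with rows measured on every array and 0.0083 to 0.132 when leaving out a replicate, and that of cytosolic members -0.038 to 0.052 when leaving out a replicate. The ER median for columns 5-7 was 0.12 with floor values kept or one row per symbol and 0.17 with rows measured on every array. With floor values kept it was 0.024 for rows C-E, -0.038 for mirror pairs and -0.11 for the perimeter. It was -0.028 for mirror pairs with one row per symbol and -0.12 for the perimeter with rows measured on every array. The cytosolic median for mirror pairs was -0.0297 with rows measured on every array and -0.034 to -0.0068 when leaving out a replicate. Bag3 changed sign in mirror pairs with floor values kept (-0.025). Among the alternatives of single genes, 687 kept their direction and side of the threshold, 22 lost a call and 13 gained one.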
